A study of Homo sapiens with 3 samples.

Results

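Matrix metalloproteinases (MMPs) and ADAMTS proteases, with the tissue inhibitors of metalloproteinases (TIMPs) that block them, were examined in parental MM468 cells and in 2 chemotherapy-resistant derivatives. They were taken from the deposited gene table as all protein-coding genes whose symbol is MMP or ADAMTS with a number, or TIMP with a single digit. This gave 46 of 46427 genes, of which 23 were MMPs, 19 were ADAMTS proteases and 4 were TIMPs. ADAMTS-like genes, which lack the protease domain, and the antisense gene MMP24OS were not members. MM468 denotes MDA-MB-468, a human cell line derived from a triple-negative breast cancer (TNBC). The parental cells were wild type and untreated. The resistant lines were the survivors of exposure to adriamycin (an anthracycline) at 10 to 140 nmol/L or paclitaxel (a microtubule-stabilizing taxane) at 2 to 320 nmol/L, and are called adriamycin-resistant and paclitaxel-resistant cells here. All 3 lines carry the WT genotype label and were grown in the same DMEM medium with fetal bovine serum and kanamycin. Whether the resistant lines are clones or mixed populations, and whether drug was present at harvest, is not given in the sources used here.

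MMPs are zinc-dependent endopeptidases that are made as inactive precursors and cleave collagens, laminins, fibronectin and many surface proteins once their prodomain is displaced. Most are secreted, whereas the membrane-type MMPs act at the cell surface. ADAMTS proteases are secreted relatives with thrombospondin repeats that bind the matrix, and different members cut proteoglycans, procollagens, cartilage oligomeric matrix protein (COMP) or von Willebrand factor. TIMPs bind the active site of MMPs and, in the case of TIMP3, also that of several ADAM and ADAMTS proteases. In breast carcinoma, these enzymes are known both from the tumor cells and from the surrounding stroma, which cultured cells lack.

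RNA-seq was done on 1 library per line, so no difference has a replicate check, no SD can be given and no test between lines was made. The authors deposited whole-number read counts per gene, with FPKM values, which are scaled to gene length and depth. The counts summed to 32704885 in parental MM468, 47567927 in adriamycin-resistant cells and 43242628 in paclitaxel-resistant cells. Each fold change is the ratio of counts after TMM scaling of both libraries compared, and a gene was compared when 1 of these libraries had 10 or more counts. Each 95% interval is the exact binomial interval for that ratio, which takes in counting error and nothing else. Where a library had 0 counts, the fold is a lower bound computed against 3 counts in that library. This bound leaves out the counting error of the other library, and the 95% interval reached to a smaller fold for every such gene. A level of 3 counts equals 0.0917 CPM in the parental library, 0.0631 in that of adriamycin-resistant cells and 0.0694 in that of paclitaxel-resistant cells. Fewer expressing cells and less RNA per cell cannot be told apart in such bulk samples. All 6 epithelial markers examined (EPCAM, CDH1, KRT7, KRT8, KRT18 and KRT19) had 3364 or more counts in every library, and PGR had 0, 0 and 7 counts, whereas ESR1 had 152, 335 and 161. ERBB2, the gene of HER2, had 2204, 3597 and 2405 counts. Of 7 fibroblast markers, COL1A2 and LUM were at 0 in all 3 libraries, 4 were at 0 in parental MM468 and in adriamycin-resistant cells and 3 in paclitaxel-resistant cells, and the list summed to 3.95, 5.78 and 3.15 FPKM, most of it from COL1A1 (659, 1629 and 820 counts). PDGFRA, another of the fibroblast markers, had 152, 12 and 16 counts. Of the endothelial and leukocyte markers, CD3E had 2 or fewer counts, whereas KDR had 209, 61 and 19 and CD68 206, 527 and 65.

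Of the 46 genes, 25 had 10 or more counts in at least 1 library, 9 had counts but fewer than 10 everywhere, and 12 had 0 counts in all 3 libraries. Those at 0 throughout were ADAMTS2, ADAMTS8, ADAMTS10, ADAMTS16, ADAMTS18, ADAMTS20, MMP8, MMP10, MMP16, MMP20, MMP26 and MMP27. Those below 10 counts were ADAMTS6, ADAMTS14, ADAMTS19, MMP1, MMP9, MMP12, MMP13, MMP21 and MMP28. Their highest values were 9 counts, reached by ADAMTS14 in parental MM468 and by MMP12 in paclitaxel-resistant cells. The collagenases MMP1, MMP8 and MMP13, which cut fibrillar collagen, thus had at most 6 counts in any library. Parental MM468 cells had 17 of the 46 genes at 10 or more counts, adriamycin-resistant cells 20 and paclitaxel-resistant cells 22.

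On the FPKM scale, TIMP2 and TIMP3 stood above every protease in all 3 lines, whereas TIMP4 was low (0, 0.855 and 0.261 FPKM). TIMP3, TIMP2 and TIMP1 were the 3 highest of the 46 genes in parental MM468 and in adriamycin-resistant cells. In paclitaxel-resistant cells the order of levels was TIMP2, TIMP3, ADAMTS1, MMP14 and ADAMTS5, with TIMP1 in the sixth place. The summed level of the 4 TIMPs was 127.7 FPKM in parental MM468, 128.3 in adriamycin-resistant cells and 135.3 in paclitaxel-resistant cells. That of the 19 ADAMTS genes was 20.7, 9.70 and 60.6 FPKM, and that of the 23 MMP genes 24.5, 15.9 and 24.7 FPKM. The ratio of the TIMP sum to the sum over both protease families was therefore 2.82 in parental MM468, 5.02 in adriamycin-resistant cells and 1.59 in paclitaxel-resistant cells. ADAMTS1 alone made up 81.5%, 37.6% and 71.6% of the ADAMTS sum.

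**Figure D1:**
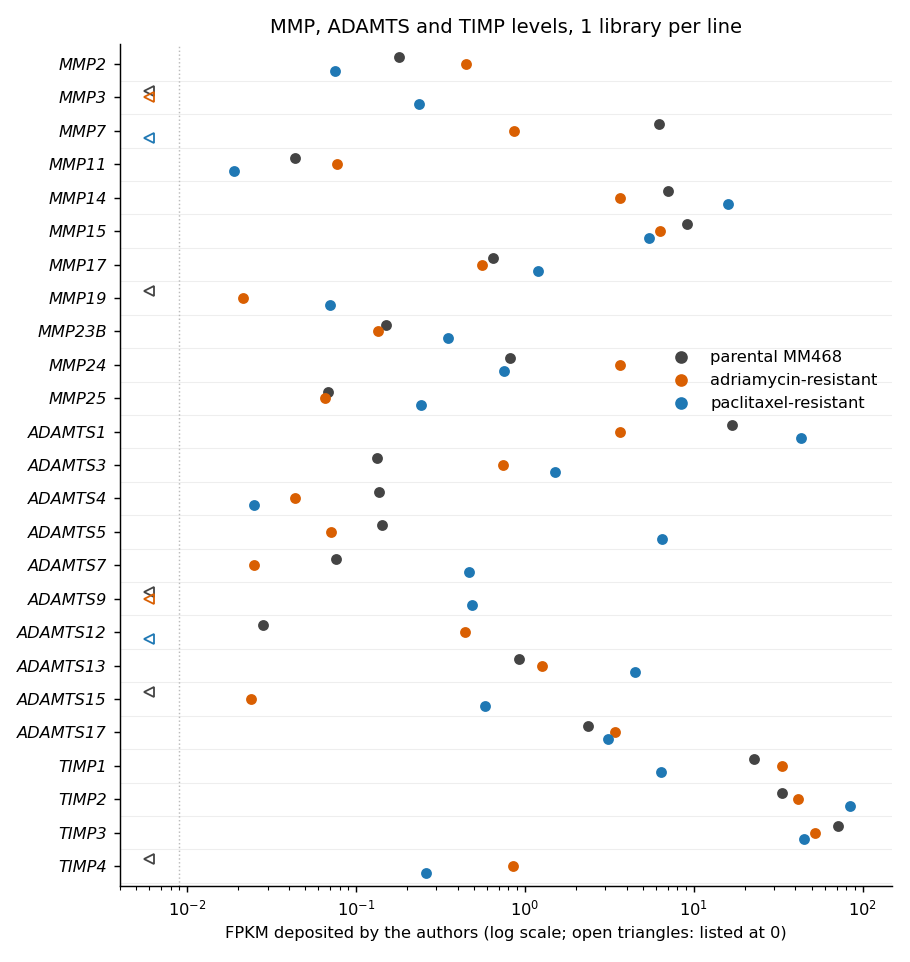
Level of each of the 25 genes with 10 or more counts in at least 1 library, as deposited FPKM on a logarithmic axis, with 1 point per library and open triangles for values listed at 0. TIMP2 and TIMP3 lie at the right in every line, while TIMP1 in paclitaxel-resistant cells (6.44 FPKM) lies left of ADAMTS1 and MMP14, and ADAMTS5 in paclitaxel-resistant cells (6.49 FPKM) lies far from its level in parental MM468 (0.143) and adriamycin-resistant cells (0.0716).

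In adriamycin-resistant cells, 21 of the 46 genes could be compared with parental MM468. A level at least 2-fold higher was found for MMP2, MMP24, ADAMTS3, ADAMTS12 and TIMP4 (5 of 21), and a level at least 2-fold lower for MMP7, ADAMTS1, ADAMTS4 and ADAMTS7 (4 of 21). By the same threshold, 10.9% of all 17950 genes compared were higher and 11.4% lower, as were 8.75% and 10.1% of the protein-coding genes. The median log2 fold change was 0.08 over the 21 genes and 0.02 over all genes. TIMP4 and ADAMTS12 passed the count minimum only through adriamycin-resistant cells and could not have been called lower, and with genes counted in all 3 libraries the number higher was 3. ADAMTS7 passed the minimum only through parental MM468 and could not have been called higher. In paclitaxel-resistant cells, 23 of the 46 could be compared with parental MM468. By the same threshold, 12 were higher (TIMP2, TIMP4, MMP3, MMP19, MMP25, ADAMTS1, ADAMTS3, ADAMTS5, ADAMTS7, ADAMTS9, ADAMTS13 and ADAMTS15) and 4 lower (MMP2, MMP7, ADAMTS4 and TIMP1). The background over 19099 genes was 20.5% higher and 13.5% lower, and over protein-coding genes 13.9% and 14.5%. The median log2 fold change was 1.08 over the 23 genes and 0.07 over all genes. Of the 12 higher genes, 5 had 0 counts in parental MM468, and these and MMP25 passed the count minimum only through paclitaxel-resistant cells, so that none of them could have been called lower. MMP7, among the lower genes, passed it only through parental MM468 and could not have been called higher. With genes counted in all 3 libraries, 7 were higher and the median was 0.40. From FPKM with a pseudocount of 1, 6 were higher and the median was 0.31, and from TPM with that pseudocount the median was 0.65.

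paclitaxel-resistant cells were also compared directly with adriamycin-resistant cells, in which 25 of the 46 genes could be compared. Of these, 10 were higher by 2-fold or more in paclitaxel-resistant cells (MMP3, MMP14, MMP19, MMP25, ADAMTS1, ADAMTS5, ADAMTS7, ADAMTS9, ADAMTS13 and ADAMTS15). Another 8 were lower by 2-fold or more (MMP2, MMP7, MMP11, MMP24, ADAMTS4, ADAMTS12, TIMP1 and TIMP4). Over all 19327 genes the shares were 19.4% higher and 14.0% lower, and over protein-coding genes 13.5% and 14.6%. Of the higher genes, MMP3, MMP19, ADAMTS7, ADAMTS9 and ADAMTS15 passed the count minimum only through paclitaxel-resistant cells, and of the lower ones MMP7, MMP11 and ADAMTS12 only through adriamycin-resistant cells. The comparisons with parental MM468 share that 1 library, so their values are set side by side only.

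**Figure D2:**
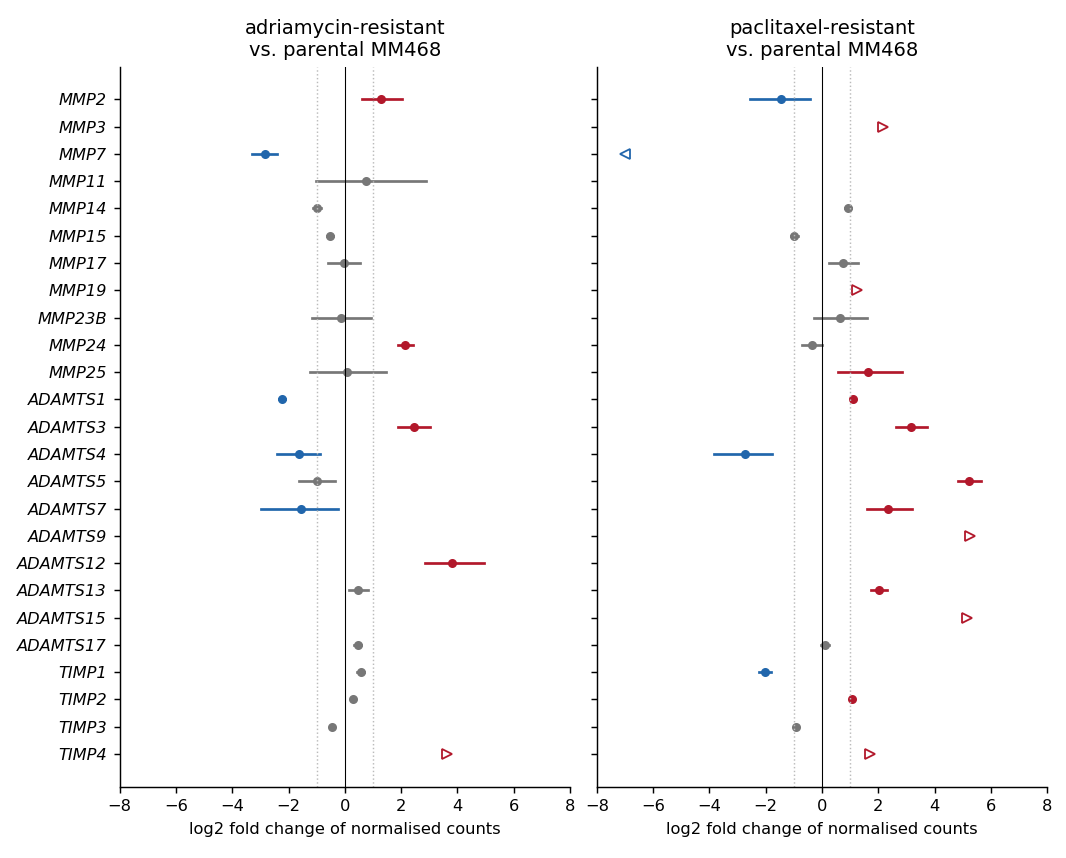
Log2 fold change of MMP, ADAMTS and TIMP genes in adriamycin-resistant cells (left) and paclitaxel-resistant cells (right) against parental MM468, with dots for ratios, bars for 95% counting intervals and open triangles for lower bounds where 1 library had 0 counts. Red marks genes at least 2-fold higher, blue at least 2-fold lower and grey the others; ADAMTS1 and MMP2 are on opposite sides of 0 in the 2 panels, while MMP7 and ADAMTS4 are on the left in both.

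**Figure D3:**
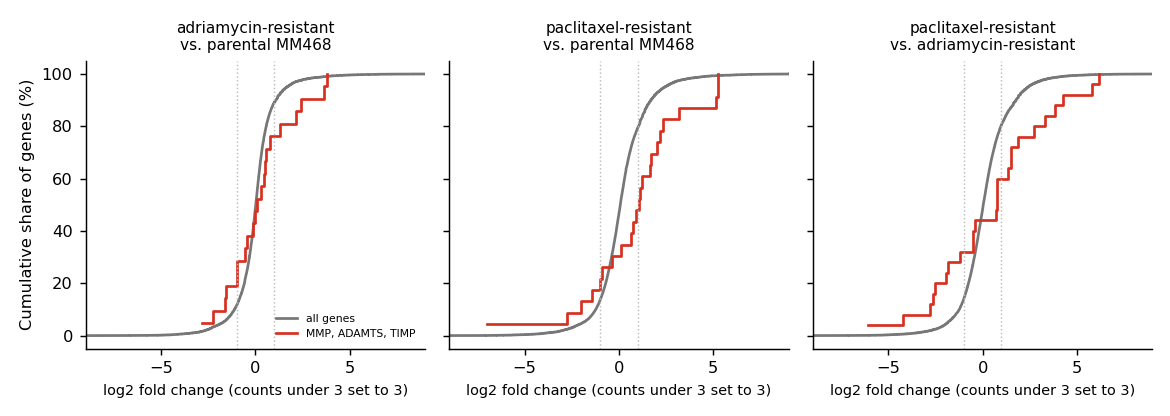
Cumulative share of genes (vertical axis, percent) by log2 fold change (horizontal axis) for all genes compared (grey) and for the compared MMP, ADAMTS and TIMP genes (red), with counts below 3 set to 3 and dotted lines at 2-fold. In paclitaxel-resistant cells against parental MM468 the median is 1.08 for the 23 genes (0.40 when only genes counted in all 3 libraries are kept) and 0.07 for all genes, whereas in adriamycin-resistant cells the medians are 0.08 and 0.02.

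The matrilysin MMP7 is a small secreted MMP that epithelial cells make and that cleaves matrix and surface proteins. MMP7 (NCBI Gene ID 4316, chr11:102520508-102530747 on the minus strand of GRCh38) had 250 counts in parental MM468, 51 in adriamycin-resistant cells and 0 in paclitaxel-resistant cells. It was 7.21-fold lower in adriamycin-resistant cells (95% interval 5.32 to 9.95). The fall in paclitaxel-resistant cells was 129-fold or more. Against adriamycin-resistant cells, it was 18.3-fold or more. Its FPKM was 6.24, 0.867 and 0, so that the seventh highest of the 46 genes in parental MM468 was listed at 0 in paclitaxel-resistant cells.

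Promoter sequence is shown for the MMP with this fall and, for contrast, for MMP24, which was higher in adriamycin-resistant cells, and TIMP1, which was lower in paclitaxel-resistant cells. RefSeq promoter windows of GRCh38.p14 were at hand for 27 of the 46 genes, and the 250 bases before the start of each were searched on both strands. The first motif was the AP-1 element, with the letters TGAGTCA on either strand, of which TGACTCA is the reverse complement. The TATA box was searched as TATAAA. For the TCF/LEF motif, either CTTTGAA or its other form CTTTGAT counted as a match. No match overlapped another in these 3 windows. Capitals mark their matches, and the sequences run 5′ to 3′ towards the start.
MMP7 (chr11:102530748-102530997, minus strand): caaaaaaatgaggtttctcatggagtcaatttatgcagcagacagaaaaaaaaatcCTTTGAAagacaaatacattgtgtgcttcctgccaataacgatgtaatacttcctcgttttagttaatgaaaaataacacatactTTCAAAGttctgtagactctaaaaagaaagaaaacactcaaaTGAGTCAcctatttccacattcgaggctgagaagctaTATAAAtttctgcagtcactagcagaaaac
MMP24 (chr20:35226440-35226689, plus strand): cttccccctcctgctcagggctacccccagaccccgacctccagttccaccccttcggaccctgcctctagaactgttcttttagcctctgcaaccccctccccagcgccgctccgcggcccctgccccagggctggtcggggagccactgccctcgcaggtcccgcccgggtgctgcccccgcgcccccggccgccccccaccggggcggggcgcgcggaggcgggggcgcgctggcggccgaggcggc
TIMP1 (chrX:47582186-47582435, plus strand): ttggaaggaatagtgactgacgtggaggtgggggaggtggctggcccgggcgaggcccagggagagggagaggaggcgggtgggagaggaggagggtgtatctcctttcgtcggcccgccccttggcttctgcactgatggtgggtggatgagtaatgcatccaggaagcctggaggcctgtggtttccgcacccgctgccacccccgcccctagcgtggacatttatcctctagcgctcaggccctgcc
The MMP7 window held an AP-1 element with its last base 61 bases before the start, a TATA box ending 25 bases before it and 2 TCF/LEF matches ending 188 and 103 bases before it. The AP-1 element was found in 1 of the 27 genes, MMP7, and in 4.20% of all 35116 windows. The TCF/LEF motif was found in 2 of the 27 (MMP7 and MMP21) and in 5.94% of all windows, and the TATA box in 7 of the 27 and in 10.7% of all. The MMP24 and TIMP1 windows held none of these letters, and their GC content was 77.6% and 64.8%, against 33.6% for MMP7. These matches describe sequence, and binding was not measured.

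MMP7 lies at the end of a run of 9 MMP genes that spans 435 kb of the long arm of chromosome 11. The other members of the run in order are MMP20, MMP27, MMP8, MMP10, MMP1, MMP3, MMP12 and MMP13. In parental MM468, MMP7 and MMP13 were the run's only genes with counts (250 and 6). In adriamycin-resistant cells it was MMP7 with 51. By contrast, MMP7 and MMP13 were at 0 in paclitaxel-resistant cells, and 3 neighbouring genes had counts: MMP1 with 5, MMP3 with 21 and MMP12 with 9. MMP3 (stromelysin-1), which activates other MMP precursors, was at least 4.52-fold higher in paclitaxel-resistant cells than in parental MM468 cells. MMP1 and MMP12 did not reach the count minimum. In GENCODE v29, MMP1 and MMP3 share 150 and 32 exon bases with the pseudogene WTAPP1 on the opposite strand, which had 0, 0 and 7 counts. The nearest expressed genes outside the run differed less. TMEM123 on the MMP7 side had 12799, 13499 and 14695 counts, and DCUN1D5 on the MMP13 side 2537, 4862 and 4721, with all log2 fold changes against parental MM468 between -0.48 and 0.38. One gene further out, BIRC2 stayed within 2-fold, while DYNC2H1 (134, 545 and 598 counts) was 2.76-fold higher in adriamycin-resistant cells and 2.88-fold higher in paclitaxel-resistant cells.

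The membrane-type MMPs held most of the MMP transcripts. MMP14 (MT1-MMP), a surface collagenase that activates the MMP2 precursor together with TIMP2, had 938 counts in parental MM468, 703 in adriamycin-resistant cells and 2752 in paclitaxel-resistant cells. It was 1.96-fold lower in adriamycin-resistant cells (95% interval 1.78 to 2.17) and 1.90-fold higher in paclitaxel-resistant cells (1.76 to 2.04), both just inside 2-fold. Its log2 fold change in paclitaxel-resistant cells was 0.92, but passed 2-fold with library size only (1.15), from FPKM with a pseudocount of 1 (1.07) or 0.1 (1.16) and from TPM (1.21). Between the resistant lines the difference was 3.63-fold (3.34 to 3.95). MMP14 was the MMP with the highest FPKM in paclitaxel-resistant cells (16.0), where it held 64.7% of the MMP sum. In the other lines the highest was MMP15 (MT2-MMP), at 9.09 FPKM in parental MM468 and 6.34 in adriamycin-resistant cells. MMP15 had 1320, 1344 and 1032 counts, and was 1.45-fold lower in adriamycin-resistant cells and 1.98-fold lower in paclitaxel-resistant cells, where DESeq2's size factors put it just past 2-fold.

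MMP24 (MT5-MMP), best known from nervous tissue, set adriamycin-resistant cells apart. It had 127 counts in parental MM468, 826 in adriamycin-resistant cells and 153 in paclitaxel-resistant cells, which is 4.42-fold higher in adriamycin-resistant cells (95% interval 3.66 to 5.37) and 1.28-fold lower in paclitaxel-resistant cells (1.01 to 1.64). In the GENCODE v29 annotation of GRCh38 its exons share 799 bases with MMP24OS on the opposite strand, which had 500, 675 and 442 counts. The library kit keeps strand, but whether the counting used it is not given in the sources used here. MMP25, a lipid-anchored membrane-type MMP, had 9, 14 and 43 counts and was 3.09-fold higher in paclitaxel-resistant cells (1.48 to 7.20). Its exons share 1454 bases with MMP25-AS1, which had 153, 282 and 773 counts, so its few counts moved with a more abundant antisense gene, and the part of that gene in the result was not tested. MMP17, the other lipid-anchored member, had 45, 65 and 117 counts and stayed within 2-fold in both resistant lines.

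MMP2 (gelatinase A), which digests type IV collagen and gelatin, was low and went in opposite directions. It had 23 counts in parental MM468, 83 in adriamycin-resistant cells and 13 in paclitaxel-resistant cells. This is 2.45-fold higher in adriamycin-resistant cells (95% interval 1.53 to 4.08) and 2.74-fold lower in paclitaxel-resistant cells (1.33 to 5.88). The other gelatinase, MMP9, had 3, 0 and 8 counts. Of the remaining MMPs, MMP11 (stromelysin-3) had 4, 10 and 3 counts, and its intervals included no change in both comparisons made. Its exons share 218 bases with CHCHD10 on the opposite strand, which had 548, 1540 and 341 counts. MMP19 had 0, 4 and 11 counts. Set against 3 parental counts, it was 2.37-fold higher in paclitaxel-resistant cells, but its lower 95% limit was 1.62-fold. Its exons share 814 bases with the antisense gene TMEM198B, which had 474, 973 and 1514 counts. MMP23B had 15, 20 and 36 counts, with intervals that included no change in all 3 comparisons, and its near-identical copy MMP23A had 8, 8 and 13, so that reads may be split between them.

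Some of the ADAMTS proteases that cut proteoglycans differed widely between the lines. ADAMTS1 (NCBI Gene ID 9510), which cleaves versican and aggrecan, had 3128 counts in parental MM468, 987 in adriamycin-resistant cells and 10454 in paclitaxel-resistant cells. It was 4.66-fold lower in adriamycin-resistant cells (95% interval 4.34 to 5.02) and 2.16-fold higher in paclitaxel-resistant cells (2.07 to 2.25). Between the resistant lines it differed 9.83-fold (9.20 to 10.5). ADAMTS5 (NCBI Gene ID 11096), a major aggrecanase of cartilage, had 51 counts in parental MM468, 38 in adriamycin-resistant cells and 2971 in paclitaxel-resistant cells. It was 37.6-fold higher in paclitaxel-resistant cells (28.6 to 50.7), while in adriamycin-resistant cells it was 1.98-fold lower (1.27 to 3.09). The interval in paclitaxel-resistant cells is set by the 51 parental counts.

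ADAMTS9 and ADAMTS15, further proteases that act on versican, appeared in paclitaxel-resistant cells. ADAMTS9 was at 0 in both other libraries and had 177 counts in paclitaxel-resistant cells, a level at least 38.1-fold above parental MM468 and at least 54.7-fold above adriamycin-resistant cells. ADAMTS15 had 0, 8 and 165 counts, in paclitaxel-resistant cells at least 35.5-fold higher than in parental MM468 and 19.1-fold higher than in adriamycin-resistant cells (95% interval 9.49 to 45.1). ADAMTS4, the aggrecanase most like ADAMTS5 in substrate, went the other way. It had 48, 23 and 11 counts, 3.07-fold lower in adriamycin-resistant cells (1.83 to 5.29) and 6.75-fold lower in paclitaxel-resistant cells (3.46 to 14.4). The remaining members of this group, ADAMTS8 and ADAMTS20, were at 0 in all libraries.

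ADAMTS1 and ADAMTS5 lie side by side on chromosome 21 (chr21:26835755-26845409 and chr21:26917922-26967088), 72.5 kb apart with no protein-coding gene of the table between them. Their values in paclitaxel-resistant cells were not shared by the genes around them. CYYR1, next to ADAMTS1, had 1084, 97 and 116 counts, which is 16.4-fold lower in adriamycin-resistant cells and 14.5-fold lower in paclitaxel-resistant cells. APP, the next gene beyond it, was 2.72-fold lower in adriamycin-resistant cells and 2.50-fold lower in paclitaxel-resistant cells. On the side of ADAMTS5, N6AMT1 had 616, 902 and 1479 counts, 1.55-fold higher in paclitaxel-resistant cells, and LTN1 was 1.23-fold lower in adriamycin-resistant cells and 1.05-fold lower in paclitaxel-resistant cells. ADAMTS15 likewise adjoins another family member, ADAMTS8 (chr11:130448645-130476645 and chr11:130404923-130428609), which had 0 counts in all 3 libraries.

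**Figure D4:**
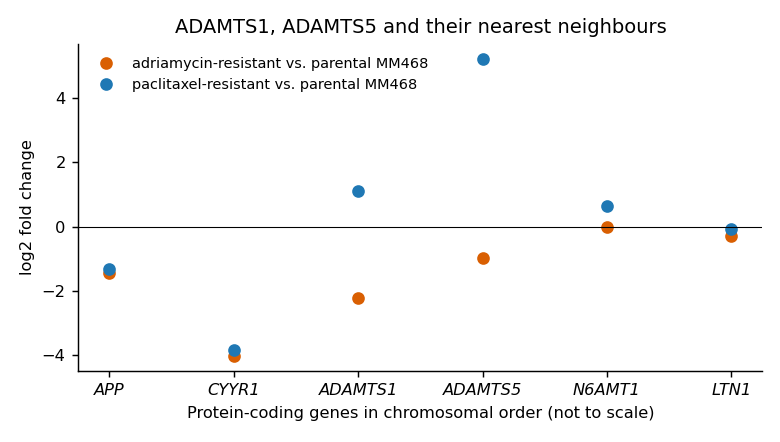
Log2 fold change against parental MM468 of ADAMTS1, ADAMTS5 and the 2 nearest protein-coding genes on each side, in chromosomal order and not to scale. APP and CYYR1 have like values in adriamycin-resistant and paclitaxel-resistant cells, whereas ADAMTS1 and ADAMTS5 lie below 0 in adriamycin-resistant cells (-2.22 and -0.98) and above 0 in paclitaxel-resistant cells (1.11 and 5.23).

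Of the procollagen N-proteinases, which trim the amino end of fibrillar procollagens, ADAMTS3 was the only member with 10 or more counts. ADAMTS3 (chr4:72280969-72569221), which also takes part in the activation of VEGF-C, had 31 counts in parental MM468, 248 in adriamycin-resistant cells and 431 in paclitaxel-resistant cells. It was 5.44-fold higher in adriamycin-resistant cells (95% interval 3.73 to 8.17) and 8.98-fold higher in paclitaxel-resistant cells (6.24 to 13.4). Besides TIMP4, it was the only one of the 46 genes at least 2-fold higher in both resistant lines. ADAMTS14 had 9, 8 and 3 counts, and ADAMTS2 had none.

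The COMP-cleaving pair, ADAMTS7 and ADAMTS12, went in opposite directions from each other. ADAMTS12 had 9 counts in parental MM468, 185 in adriamycin-resistant cells and 0 in paclitaxel-resistant cells. It was 14.0-fold higher in adriamycin-resistant cells than in parental MM468 cells (95% interval 7.20 to 31.0). From adriamycin-resistant cells to paclitaxel-resistant cells the difference was a fall of 66.5-fold or more. ADAMTS7 had 16, 8 and 125 counts, 2.94-fold lower in adriamycin-resistant cells (1.19 to 7.94) and 5.05-fold higher in paclitaxel-resistant cells (2.99 to 9.10). Reads of ADAMTS7 could be shared with its pseudogene copies, of which ADAMTS7P3 had 3, 2 and 7 counts and ADAMTS7P1 and ADAMTS7P4 had 0.

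ADAMTS13, the protease that cuts von Willebrand factor, had 119, 245 and 748 counts. It was 4.06-fold higher in paclitaxel-resistant cells (95% interval 3.34 to 4.97) and within 2-fold in adriamycin-resistant cells. VWF itself had 12, 4 and 16 counts. ADAMTS17, which is linked to fibrillin microfibrils, was among the steadiest members, with 689, 1389 and 1146 counts, 1.37-fold higher in adriamycin-resistant cells and 1.07-fold in paclitaxel-resistant cells (0.977 to 1.18). ADAMTS6 and ADAMTS19 were detected in paclitaxel-resistant cells alone, with 8 and 4 counts.

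In deposited FPKM, the TIMPs kept a nearly constant sum while their makeup differed. The TMM scaling of the fold changes was not applied to that sum, and sums on other scales were not compared. TIMP1 (chrX:47582436-47586789), a broad MMP inhibitor that is weak against most membrane-type MMPs, had 671 counts in parental MM468, 1455 in adriamycin-resistant cells and 257 in paclitaxel-resistant cells. It was 1.47-fold higher in adriamycin-resistant cells (95% interval 1.34 to 1.62) and 4.04-fold lower in paclitaxel-resistant cells (3.49 to 4.68). TIMP2 (chr17:78852977-78925387), which inhibits MMP14 and also bridges it to the MMP2 precursor, had 4345, 7898 and 14202 counts. It was 1.23-fold higher in adriamycin-resistant cells (1.19 to 1.28) and 2.11-fold higher in paclitaxel-resistant cells (2.04 to 2.19). TIMP1 and TIMP2 were thus both higher in adriamycin-resistant cells, and stood on opposite sides of parental MM468 in paclitaxel-resistant cells.

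TIMP3 (chr22:32801705-32863041), the matrix-bound inhibitor that also blocks ADAM17 and aggrecanases, had 11763, 12573 and 9635 counts. It was 1.38-fold lower in adriamycin-resistant cells (95% interval 1.34 to 1.41) and 1.89-fold lower in paclitaxel-resistant cells (1.84 to 1.94). On the FPKM scale it was 71.6, 52.5 and 45.1, and TIMP2 was 33.3, 41.5 and 83.6. TIMP2 therefore took the place of TIMP3 as the highest of the 46 genes in paclitaxel-resistant cells, with 61.8% of the TIMP sum. TIMP4 had 0 counts in parental MM468, 54 in adriamycin-resistant cells and 15 in paclitaxel-resistant cells, which puts the resistant lines at least 12.2-fold and at least 3.23-fold above parental MM468. It shares 170 exon bases with SYN2 on the opposite strand, which had 0, 11 and 17 counts.

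**Figure D5:**
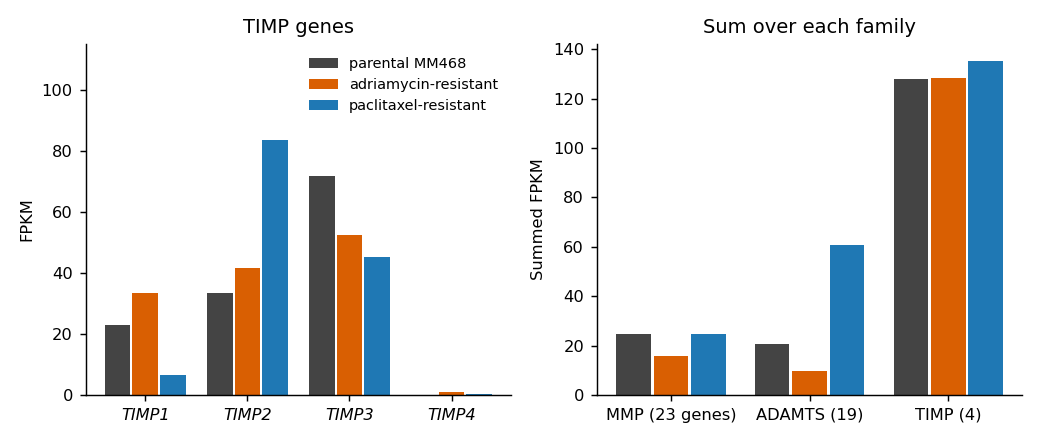
Deposited FPKM of the 4 TIMP genes (left) and summed FPKM of each family (right) for the parental line and both resistant lines, with 1 library per bar and no error bars. TIMP sums lie between 127.7 and 135.3 FPKM, while the ADAMTS sum is 20.7, 9.70 and 60.6 FPKM.

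Other genes of the pathway were taken from fixed lists, whose counts stand against the same shares over all genes as above: 10.9% higher and 11.4% lower in adriamycin-resistant cells, and 20.5% and 13.5% in paclitaxel-resistant cells. Of 18 activators and regulators of these proteases, 15 could be compared in adriamycin-resistant cells, of which 3 were higher by 2-fold or more and 3 lower. In paclitaxel-resistant cells 16 could be compared, of which 6 were higher and 4 lower. SPOCK1 (0, 3 and 18 counts) and PLAT (8, 41 and 51) were among the higher genes and passed the count minimum only through the resistant lines. TFPI2, a secreted Kunitz-type inhibitor of serine proteases that is stored in the matrix, had 1110 counts in parental MM468, 1757 in adriamycin-resistant cells and 53098 in paclitaxel-resistant cells, where it was 30.9-fold higher (95% interval 29.1 to 32.8). The urokinase receptor gene PLAUR had 902, 1291 and 7150 counts, 5.12-fold higher in paclitaxel-resistant cells. SERPINE2, a serine protease inhibitor, had 126, 85 and 531 counts, 2.18-fold lower in adriamycin-resistant cells and 2.72-fold higher in paclitaxel-resistant cells. Urokinase itself (PLAU) had 1142, 1793 and 1295 counts and stayed within 2-fold. A2M, a trap for proteases of all classes, was 26.3-fold lower in adriamycin-resistant cells and 4.92-fold lower in paclitaxel-resistant cells, with 375, 21 and 118 counts. LRP1, the endocytic receptor that clears MMPs and their complexes, had 647, 335 and 487 counts and was 2.84-fold lower in adriamycin-resistant cells and 2.06-fold lower in paclitaxel-resistant cells. RECK, a membrane-anchored MMP inhibitor, had 413, 932 and 311 counts, 1.53-fold higher in adriamycin-resistant cells and 2.06-fold lower in paclitaxel-resistant cells. SPOCK2, a matrix proteoglycan of the testican family, had 354, 1753 and 272 counts, 3.36-fold higher in adriamycin-resistant cells and 2.01-fold lower in paclitaxel-resistant cells.

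Of the 7 ADAMTS-like genes, whose products resemble ADAMTS proteases without the catalytic domain, 4 could be compared in adriamycin-resistant cells, and 2 of these were higher by 2-fold or more and 0 lower, against 10.9% and 11.4% of all genes. Of 5 compared in paclitaxel-resistant cells, 3 were higher and 1 lower, against 20.5% and 13.5%, and ADAMTSL2 (0, 9 and 16 counts) could only have been called higher. ADAMTSL5 had 95, 444 and 373 counts and PAPLN (papilin) 68, 394 and 218, and these were higher in both lines. THSD4, which promotes fibrillin assembly, had 1014, 759 and 545 counts and was 2.88-fold lower in paclitaxel-resistant cells.

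Of 20 matrix substrates, 9 could be compared in adriamycin-resistant cells (2 higher, 2 lower) and 12 in paclitaxel-resistant cells (7 higher, 1 lower). The shares over all genes were 10.9% and 11.4% in the former and 20.5% and 13.5% in the latter. Of the 7 higher genes, NCAN, DCN and ELN were at 0 and COL3A1 at 2 counts in parental MM468, so that these 4 could not have been called lower. The large proteoglycans that the ADAMTS1 group cuts were nearly absent. VCAN (versican) and BCAN (brevican) had 0 counts in every library, ACAN (aggrecan) had 4 in adriamycin-resistant cells and 0 elsewhere, and NCAN (neurocan) had 0, 14 and 17. The basement membrane collagens COL4A1 and COL4A2 had 437, 867 and 5045 counts and 943, 2189 and 7434 counts, 7.46-fold and 5.09-fold higher in paclitaxel-resistant cells. HSPG2 (perlecan) had 4457, 1599 and 8754 counts and was 4.10-fold lower in adriamycin-resistant cells and 1.27-fold higher in paclitaxel-resistant cells. FBN1 (fibrillin-1) had 23, 126 and 861 counts and was 3.72-fold higher in adriamycin-resistant cells and 24.2-fold higher in paclitaxel-resistant cells. FN1 (fibronectin) had 1744, 2016 and 276 counts and was 9.78-fold lower there.

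AP-1 and ETS transcription factors are known activators of MMP promoters. All 12 factors listed could be compared. In adriamycin-resistant cells 0 passed 2-fold upwards and 3 downwards, and in paclitaxel-resistant cells 2 upwards and 2 downwards. The latter shares, 16.7% each way, were near those over all genes (20.5% and 13.5%), and in adriamycin-resistant cells all genes gave 10.9% and 11.4%. FOS and FOSL1, with 541 and 370 counts in parental MM468, were 2.34-fold and 2.49-fold lower in adriamycin-resistant cells. ETV1 had 439, 193 and 235 counts and was lower in both lines. In paclitaxel-resistant cells, FOSL2 (4584, 8803 and 18338 counts) was 2.59-fold and ETS2 (1604, 1631 and 6153 counts) 2.48-fold higher, and ETV4 (552, 1254 and 400 counts) 2.14-fold lower. Whether any of these factors bears on the MMP, ADAMTS or TIMP values was not tested.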

How the data were processed

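RNA of the 3 lines was sequenced by Macrogen Japan Corp. from strand-keeping mRNA libraries. The labels name a MagMAX kit for RNA isolation and the study's methods an RNeasy kit for these cells. The submitters' processing notes name Trimmomatic 0.39, HISAT2 2.2.1, StringTie 2.2.1 and GRCh38, without their settings. The authors deposited read counts per gene (not normalized), FPKM and TPM for 46427 genes, and the TPM of each library summed to 1000000. Libraries were matched to lines through the library names in the labels.

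Counts were compared in R 4.3.3. A gene was kept at 10 or more counts in 1 of both libraries compared, TMM factors came from edgeR 4.0.16, and log2 fold changes used a prior count of 0.125. Totals of 32704885 to 47567927 counts set the precision. No quasi-likelihood fit of edgeR was possible, because without replicates the spread between samples is unknown. The deposited FPKM served to compare levels between genes. The steps were tested on simulated data. The alternatives tried were size factors of DESeq2 1.42.0, scaling by library size alone, TMM on all 3 libraries, a prior count of 2, other count filters, a 4-fold threshold, and FPKM or TPM with a pseudocount.

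The 46 genes were set by a rule on symbols. The genes and the pathway lists were chosen with earlier results of these data known. Every TIMP and every MMP or ADAMTS gene with 10 or more counts in 1 library is named with its counts, as are listed pathway genes at least 2-fold different with 100 or more counts. The proteoglycan genes given for their low counts, other listed genes under 100 counts, PLAU and VWF fall outside that rule and were named after their values were seen, as were the TATA box and TCF/LEF motifs and the 3 promoters shown. The AP-1 motif, the lists and the markers were set with the rule. Promoters and gene positions are from RefSeq (GRCh38.p14), in which all 46 genes were found by Gene ID. Figures were drawn with matplotlib 3.10.9. Some listed genes are not reported here by name.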

Additional observations from a re-analysis of the deposited data

Results flagged for a closer look

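For 7 genes the 95% counting interval lay on opposite sides of no change in adriamycin-resistant and paclitaxel-resistant cells, both against parental MM468. With 1 library per line, this difference between the resistant lines was not tested. The share of all genes that meet the same rule was not computed, so whether 7 is many or few cannot be said. The log2 fold change of paclitaxel-resistant cells against adriamycin-resistant cells was 6.18 for ADAMTS5, 3.84 for ADAMTS7, 3.30 for ADAMTS1 and 1.86 for MMP14, which were lower in adriamycin-resistant cells and higher in paclitaxel-resistant cells. It was -2.77 for MMP2, -2.61 for TIMP1 and -2.54 for MMP24, which were higher in adriamycin-resistant cells and lower in paclitaxel-resistant cells. MMP24 was the nearest to no change, at 1.28-fold lower in paclitaxel-resistant cells (1.01 to 1.64), and this depended on the scaling. Its log2 fold change there was -0.36, and -0.38 with DESeq2's size factors. It was -0.13 with library size only, and -0.05 from FPKM and -0.03 from TPM with a pseudocount of 1. ADAMTS7 rested on 16 counts in parental MM468 and 8 in adriamycin-resistant cells.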

How the results depend on the processing

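No paired analysis was possible because each line has 1 library. Of 96 counts and medians recomputed under the alternatives, 66 stayed within 1.5 times (counts) or within the medians of the counting bounds (medians). With DESeq2's size factors, TMM on all 3 libraries or a prior count of 2, all did.

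In adriamycin-resistant cells, the genes at least 2-fold higher were 3 with a minimum of 100 counts, 3 with genes counted in all 3 libraries, 3 from TPM with a pseudocount of 1 and 1 from FPKM with that pseudocount. Those lower were 2 with a minimum of 100 counts, at a 4-fold threshold, from FPKM with a pseudocount of 1 or 0.1 and from TPM. In paclitaxel-resistant cells, 7 were higher with genes counted in all 3 libraries and 6 from FPKM with a pseudocount of 1. Those lower were 7 without a count minimum, and 2 with a minimum of 100 counts, from FPKM with either pseudocount and from TPM. Between the resistant lines, 16 were higher in paclitaxel-resistant cells without a minimum, 6 with genes counted in all 3 libraries, 6 at 4-fold and 4 from FPKM with a pseudocount of 1. Those lower were 3 with a minimum of 100 counts, 5 at 4-fold, 4 from TPM and 2 from FPKM with a pseudocount of 1.

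The median log2 fold change in paclitaxel-resistant cells went from 1.08 to 1.31 with library size only, 0.40 with genes counted in all 3 libraries, 0.31 from FPKM and 0.65 from TPM with a pseudocount of 1. Library size only raised the median of all genes from 0.07 to 0.30. Between the resistant lines the median went from 0.74 to 0.98 with library size only and to 0.92 from FPKM with a pseudocount of 0.1, and fell to 0.24 with genes counted in all 3 libraries, 0.22 from FPKM and 0.49 from TPM with a pseudocount of 1. Fewer genes remain by construction with higher minimums, and a pseudocount shrinks the fold of low genes. Of 649 values of single genes, 5 had the opposite sign, in MMP17, MMP25 and ADAMTS17, and none of these was at least 2-fold changed in its comparison. Depth limits what can be said of genes close to 0 counts, whose folds are lower bounds.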
